A study of Mus musculus with 6 samples.

Results

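The list of tRNA-derived fragments (tRFs) that were called decreased in pancreatic islets of db/db mice holds 24 fragments of 2 adjoining mitochondrial tRNA genes. Of these, 23 come from mt-tRNA-Ser-GCT (gene mt-Ts2) and 1 comes from mt-tRNA-Leu-TAG (gene mt-Tl2). They were taken by the parent tRNA named in the list, a rule that uses no values, though earlier results of these data were known. They make up 24 of its 170 tRFs and of its 147 mitochondrial tRFs. The list itself was drawn up on these same libraries for a decrease in db/db islets, so the direction of every member was set by that choice. Fragments of both tRNAs that rose or did not change were not analysed here.

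Islets of 3 male db/db mice, homozygous for a mutation of the leptin receptor gene Lepr (genotype BKS(D)-Leprdb/JOrlRj), were set against islets of 3 male heterozygous db/+ mice (BKS(D)-Leprdb/+/JorlRj), which keep a functional copy of the gene. All 6 mice were 16 weeks old and ate a chow diet, and each gave 1 small-RNA library of whole islets that had been released with collagenase, separated on Histopaque and picked by hand. Charged and blocked RNA ends were made fit for adaptors and base methylations were removed before library construction, so that cleaved and modified tRNAs could be read. The comparison asks how the islet tRF profile differs in db/db mice. In such bulk islets, fewer cells of a type and less RNA per cell cannot be told apart, and the list of tRFs holds no cell type marker with which to check the tissue label. The sources disagree on the colony the mice came from. The authors' methods give these genotype names to another batch than the 16-week-old mice, so the strain names are uncertain. Replicate numbers also differ between the sources, so a number here names 1 mouse of its group. Levels are reads divided by the size factor of the library (normalized reads), given for replicates 1, 2 and 3 in that order. Reads of the 24 tRFs summed to 107, 697 and 749 in the db/db libraries and to 4296, 4381 and 3261 in the db/+ libraries. The list does not give the total depth of a library.

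Mitochondrial tRNAs are cut out of long transcripts in which they lie like punctuation between the messenger and ribosomal RNAs, with a cut at the 5′ end, a cut at the 3′ end and the addition of CCA, to which the amino acid is attached. mt-tRNA-Ser-GCT reads the serine codons that begin with AG, and mt-tRNA-Leu-TAG reads the leucine codons that begin with CU. In mammals mt-tRNA-Ser-GCT has no D arm, the hairpin that most tRNAs carry between the acceptor stem and the anticodon stem. Fragments that begin at the first base of the tRNA, wherever they end, are called 5′ tRFs here.

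Both genes lie on the same strand of the mitochondrial chromosome, directly after mt-Th, the gene of mt-tRNA-His. Matched to GENCODE M21 (GRCm38; no source used here gives the authors' build), mt-Th ended at position 11612, mt-Ts2 (ENSMUSG00000064365.1) spanned chrM:11613-11671 with 0 bases between them, and mt-Tl2 (ENSMUSG00000064366.1) spanned chrM:11671-11741. Each gene is a single exon that is the tRNA itself, with no intron or UTR. The base at 11671 belonged to both annotations, as the last base of mt-Ts2 and the first of mt-Tl2. The whole parent tRNAs are printed 5′ to 3′ to show this layout, with the anticodon in capitals and without the CCA.
mt-tRNA-Ser-GCT: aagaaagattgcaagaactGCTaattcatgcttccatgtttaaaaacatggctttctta
mt-tRNA-Leu-TAG: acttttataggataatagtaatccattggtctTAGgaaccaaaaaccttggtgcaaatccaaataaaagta

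At 59 nt, mt-tRNA-Ser-GCT was the shortest of the 22 mitochondrial tRNAs, the next being 65 nt and the longest 75 nt. Its acceptor stem paired positions 1 to 7 with 52 to 58 (7 of 7 Watson-Crick pairs), its anticodon stem 11 to 17 with 25 to 31 (6 of 7) and its T stem 34 to 39 with 46 to 51 (6 of 6). Only 3 bases lay between the acceptor stem and the anticodon stem, against 18 in the 71-nt mt-tRNA-Leu-TAG. With no D arm, the GCT anticodon stood at positions 20 to 22, against 33 to 35 for the TAG anticodon. A 5′ fragment that ends in the anticodon loop of this tRNA is thus as short as 18 nt.

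The tRFs on which the results turn are printed in the same way, chosen for their class, their length or their level. They are the shortest and the longest 5′ tRF, those of 25 and 32 nt with the smallest adjusted p, the most abundant one of 41 nt, its version that starts at base 2, the fragment that ends in the added CCA, and the fragment of mt-tRNA-Leu-TAG.
Ser-GCT 1-18: aagaaagattgcaagaac
Ser-GCT 1-25: aagaaagattgcaagaactGCTaat
Ser-GCT 1-32: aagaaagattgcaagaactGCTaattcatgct
Ser-GCT 1-41: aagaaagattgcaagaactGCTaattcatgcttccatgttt
Ser-GCT 1-44: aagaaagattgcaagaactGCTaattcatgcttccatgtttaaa
Ser-GCT 2-41: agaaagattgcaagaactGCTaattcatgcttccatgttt
Ser-GCT 9-62: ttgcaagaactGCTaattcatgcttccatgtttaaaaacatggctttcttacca
Leu-TAG 1-40: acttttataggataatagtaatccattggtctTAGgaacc

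The 23 fragments of mt-tRNA-Ser-GCT formed a ladder at a fixed 5′ end. In all, 20 began at the first base of the tRNA, 2 began at base 2 or 3 and ended at position 41, and 1 ran from base 9 to the last base of the added CCA. The 5′ tRFs ended at 6 positions in the anticodon loop (18 to 23 nt), 6 in the 3′ strand of the anticodon stem (25, 26, 27, 28, 30 and 31 nt), 2 in the bases that connect it to the T stem (32 and 33 nt), 2 in the 5′ strand of the T stem (38 and 39 nt) and 4 in the T loop (40, 41, 42 and 44 nt). Each adds bases at the 3′ side to the same start, so these tRFs overlap and are not independent molecules of different genes.

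**Figure D1:**
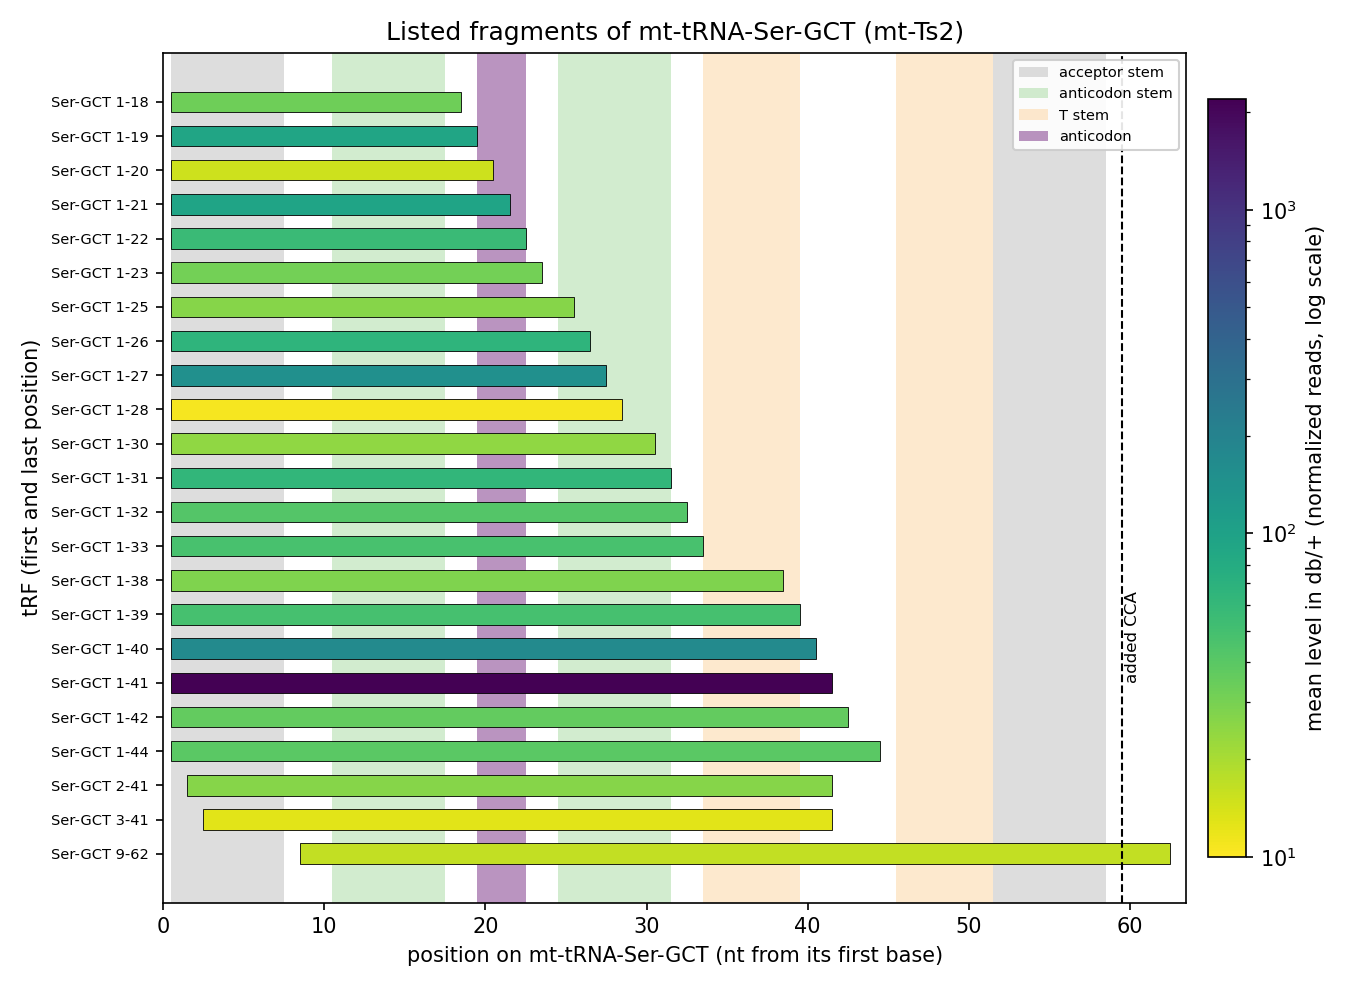
Bars show the 23 listed fragments along the positions of mt-tRNA-Ser-GCT (x axis, nt from its first base), coloured by mean level in db/+ islets (normalized reads, log scale), and shading marks the stems and the anticodon. Of the 23, 20 share the first base, and the 41-nt tRF stands out with a mean of 2203 normalized reads in db/+ islets.

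Every one of the 24 tRFs was lower in each db/db library than in each db/+ library, and all 24 passed edgeR's quasi-likelihood test with an adjusted p no larger than 0.05 and a fall of 2-fold or more. Over all 170 listed tRFs, 97.6% passed this test and 94.7% had groups that did not overlap, so both counts of members were near the background. The list was drawn up for a decrease in these same libraries, so passing was largely set in advance. The edgeR and limma p-values given here thus describe listed tRFs and are no independent evidence of a decrease. The log2 fold changes had a median of -3.10 over the 24, also with the tRFs that had no db/db read set at their bounds, against -2.42 over all 170 and -2.42 over the other mitochondrial tRFs. Of the 23 tRFs of mt-tRNA-Ser-GCT, 20 had a log2 fold change below the median of all listed tRFs. These tRFs share sequence, and 17 of the 20 5′ tRFs had a mean db/+ level under 100 normalized reads. The most abundant one, of 41 nt, was at -2.63 (standard error 0.81), not clearly apart from that median. By parent, the median of mt-tRNA-Ser-GCT was -3.14, that of mt-tRNA-Leu-TAA was -3.30, and those of the other mitochondrial parents were less negative. With levels rescaled to equal sums of the listed nuclear tRFs, which moved the median of all 170 by 1.26 on the log2 scale, only 2 of the 24 were called (the 25-nt and 32-nt tRFs), the only 2 of all 170. Those nuclear tRFs were listed for a decrease too (median log2 fold change -1.96), so equal sums take a shared decrease out by construction. Set against the median of all listed tRFs, the median of the 24 was -0.68 on the log2 scale with the authors' factors and -0.72 with the rescaled ones. Rescaling moves most tRFs by a similar amount, so these 2 differences were bound to be close.

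**Figure D2:**
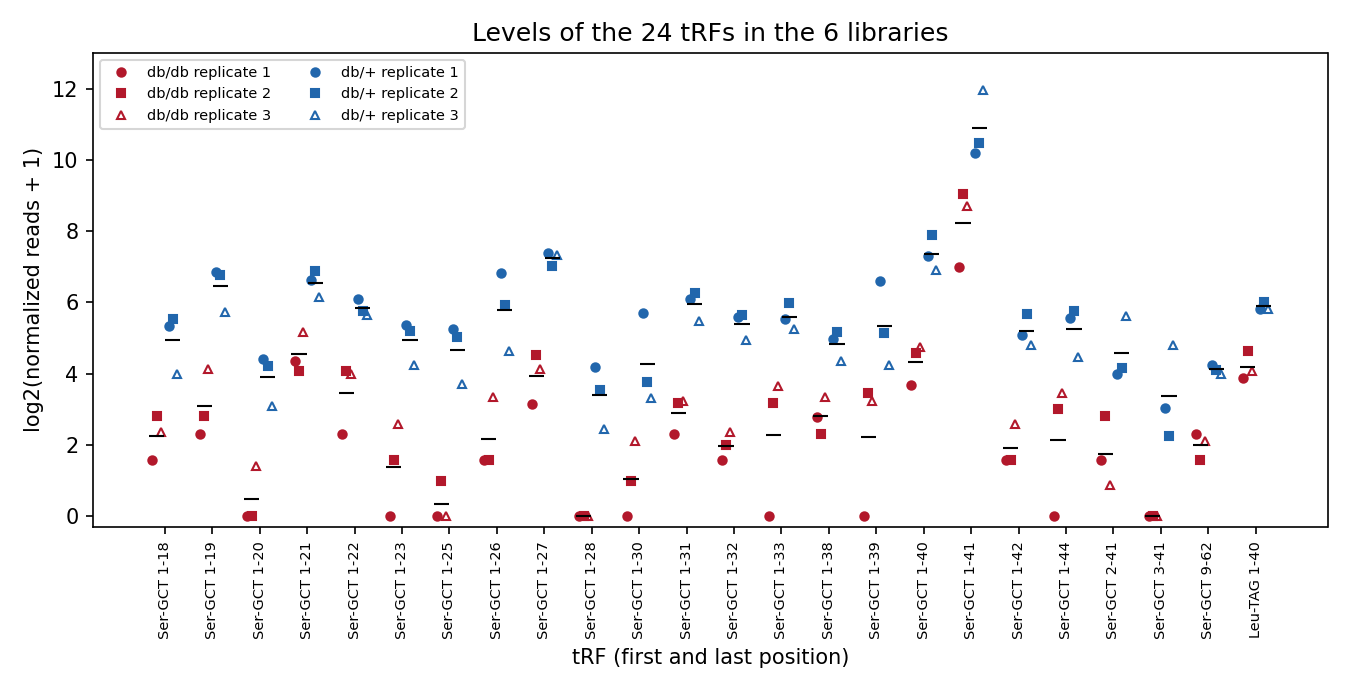
Points give log2(normalized reads + 1) of the 24 tRFs (x axis, first and last position on the tRNA) in each library, db/db in red and db/+ in blue, and black bars are group means on this scale (n = 3 each). No db/db point reaches a db/+ point of the same tRF, and db/+ replicate 3 (open blue triangles) lies highest of all libraries at the 41-nt tRF but lowest of the db/+ libraries at 18 of the other 19 5′ tRFs.

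By mean level, the mt-tRNA-Ser-GCT fragments were led by 1 tRF of 41 nt (chrM:11613-11653), whose last base is a T in the T loop with A next on the tRNA. It had 126, 525 and 414 normalized reads in db/db islets, against 1177, 1432 and 4000 in db/+ islets. By mean level over the 6 libraries it ranked 2 of the 147 listed mitochondrial tRFs. The lowest db/+ library stood above the highest db/db library, while db/db replicate 1 lay far under the other db/db libraries and db/+ replicate 3 far over the other db/+ libraries. It fell by 2.63 in log2 units (standard error 0.81, edgeR adjusted p = 0.00916), with the largest adjusted p among the 24, and was at -1.87 without db/+ replicate 3.

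Its neighbours in the T loop were much less abundant. The 40-nt tRF had 11.8, 22.9 and 25.8 normalized reads in db/db islets and 155, 235 and 120 in db/+ islets (log2 fold change -3.05, standard error 0.68, adjusted p = 0.00445 from edgeR). The 42-nt tRF had 1.96, 1.99 and 4.99 normalized reads in db/db islets and 32.8, 50.2 and 26.9 in db/+ islets (log2 fold change -3.49, standard error 0.59, adjusted p = 0.00250 from edgeR), and without db/db replicate 3 it was at -4.14. Reads of 41 nt thus outnumbered those of 40 nt in every library, by 10.7, 23.0 and 16.1 times in db/db islets and by 7.57, 6.09 and 33.4 times in db/+ islets, ratios that overlap between the groups. The longest 5′ tRF, of 44 nt, had 0, 6.97 and 9.98 normalized reads in db/db islets and 45.9, 52.7 and 21.0 in db/+ islets. It fell by 2.65 in log2 units (standard error 0.70, edgeR adjusted p = 0.00503), and was at -3.25 without db/db replicate 3.

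The 6 tRFs that end in the anticodon loop resemble fragments left by a cut at the anticodon, as angiogenin makes in cytoplasmic tRNAs. How these 6 tRFs arose was not tested. Summed, they had 29.5, 45.8 and 77.3 normalized reads in db/db islets and 379, 378 and 213 in db/+ islets. The 21-nt tRF, which stops inside the anticodon, led them with 19.6, 15.9 and 34.9 normalized reads in db/db islets and 97.1, 118 and 70.4 in db/+ islets. It had the smallest decrease of the 23 (log2 fold change -2.0, standard error 0.60, adjusted p = 0.00804 from edgeR).

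The 19-nt tRF ends just before the anticodon. It had 3.93, 5.97 and 16.6 normalized reads in db/db islets and 116, 108 and 52.4 in db/+ islets. It fell by 3.29 in log2 units (standard error 0.69, edgeR adjusted p = 0.00378), and was at -4.15 without db/db replicate 3, the highest of the db/db libraries. The shortest tRF, of 18 nt, takes in the first base of the loop and had 1.96, 5.97 and 4.16 normalized reads in db/db islets against 39.3, 45.2 and 15.0 in db/+ islets. Its log2 fold change was -2.95 (standard error 0.61, adjusted p = 0.00377 from edgeR), and db/+ replicate 3 was the lowest db/+ library for both tRFs. The 20-nt tRF was read 2 times in all db/db libraries and 67 times in all db/+ libraries, a ratio of db/+ over db/db of 23.1 (95% counting interval 6.15 to 195). Both db/db reads came from replicate 3, without which the fitted log2 fold change was -7.10 in place of -4.25 and a floor of 3 db/db reads put the tRF at least 7.62-fold lower.

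The 6 tRFs that end in the 3′ strand of the anticodon stem summed to 13.8, 33.8 and 37.4 normalized reads in db/db islets and to 454, 319 and 251 in db/+ islets. Their median log2 fold change was -3.76, or -3.52 with the unread 28-nt tRF at its bound. It was -5.02 without db/db replicate 3 and -3.14 without db/+ replicate 1. The medians of the other end regions were -3.12 (anticodon loop), -3.20 (connecting bases), -2.50 (T stem) and -2.85 (T loop), and the regions were not tested against each other. The 27-nt tRF made up much of this sum, with 7.86, 21.9 and 16.6 normalized reads in db/db islets and 167, 129 and 159 in db/+ islets. It fell by 3.25 in log2 units (standard error 0.67, edgeR adjusted p = 0.00377). For every 5′ tRF except those of 27 and 41 nt, db/+ replicate 3 was the lowest of the db/+ libraries.

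At the edge of this stem, the 25-nt tRF had 0, 0.995 and 0 normalized reads in db/db islets, from 1 read, and 36.9, 31.4 and 12 normalized reads in db/+ islets. Its fitted log2 fold change was -5.84 (standard error 0.91, adjusted p = 0.00216 from edgeR). With 1 db/db read against 120 db/+ reads, the ratio of db/+ over db/db was 82.7 with a 95% counting interval of 14.6 to 3295, so the size of this decrease is poorly known. That read came from db/db replicate 2, without which no db/db read was left, the fitted value was -7.96 and the same floor put it at least 15.3-fold lower. Without db/db replicate 3 the fitted value was -5.18. The 28-nt tRF was not read in db/db islets and had 17.3, 10.7 and 4.49 normalized reads in db/+ islets. With 3 reads over the db/db group as a floor, it was at least 9.79-fold lower in db/db islets, a bound that was 6.17-fold without db/db replicate 2 and 5.46-fold without db/db replicate 3. The remaining tRFs of this region, of 26, 30 and 31 nt, had log2 fold changes of -3.77, -3.75 and -3.14. Without db/db replicate 3 the first 2 of them were at -4.98 and -5.05, and without db/+ replicate 1 at -3.12 and -2.57.

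Between the anticodon and T stems, the 32-nt tRF had 1.96, 2.99 and 4.16 normalized reads in db/db islets and 47.1, 49.0 and 29.9 in db/+ islets. The spread within each group was small beside the gap between the groups, but the db/db values rest on 1, 3 and 5 reads. With the 25-nt tRF, the 32-nt tRF shared the smallest adjusted p of all 170 tRFs (adjusted p = 0.00216 from edgeR). Leaving out 1 library at a time kept its log2 fold change between -3.97 and -3.52. The 2 tRFs that end in the T stem, of 38 and 39 nt, summed to 5.89, 13.9 and 17.5 normalized reads in db/db islets and to 126, 69.7 and 37.4 in db/+ islets. The log2 fold change of the 39-nt tRF was -2.88, and -1.96 without db/+ replicate 1, its highest library. No listed 5′ tRF ended at positions 24, 29, 34 to 37 or 43, and fragments with those ends were not analysed here.

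**Figure D3:**
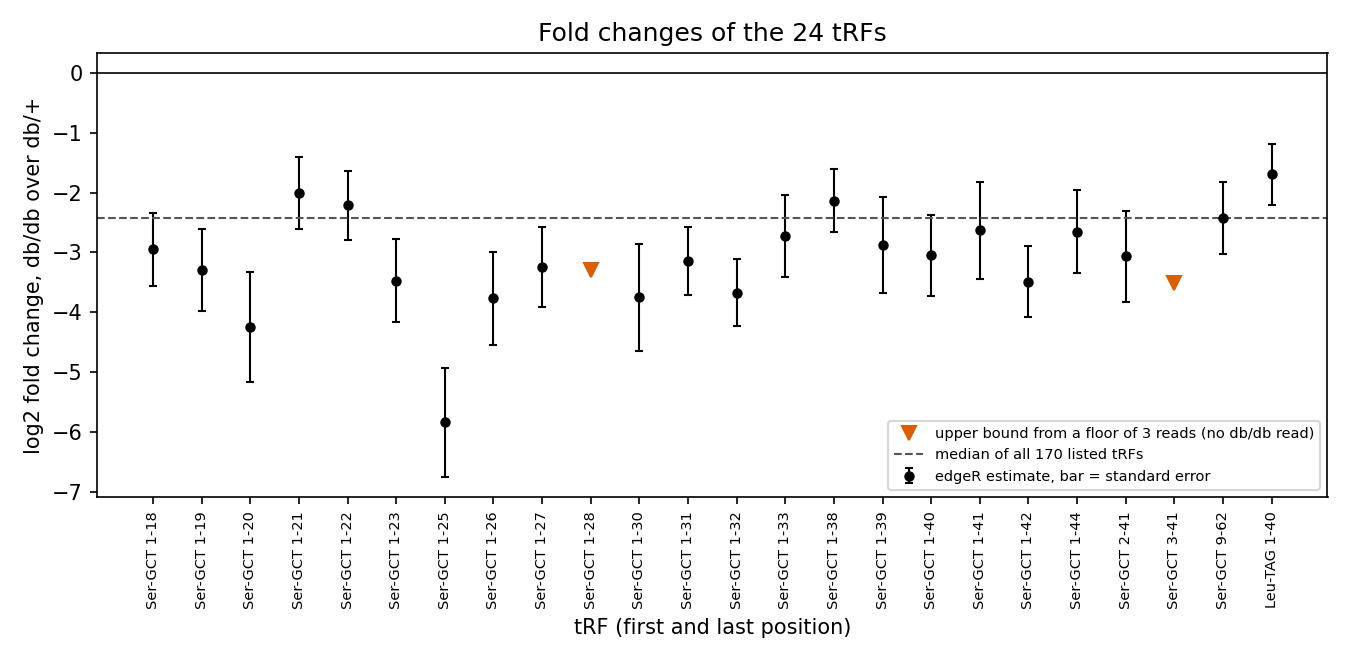
Points give the edgeR log2 fold change of db/db over db/+ islets with its standard error, and triangles mark the upper bounds of the 2 tRFs with no db/db read. Most fragments of mt-tRNA-Ser-GCT lie below the dashed line, the median of -2.42 over all 170 listed tRFs, and the fragment of mt-tRNA-Leu-TAG lies above it at -1.69.

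The 3 fragments with another start were rare. The version of the 41-nt tRF that starts at base 2 had 1.96, 5.97 and 0.831 normalized reads in db/db islets and 14.9, 16.9 and 47.9 in db/+ islets. Its log2 fold change was -3.06 (standard error 0.76, adjusted p = 0.00445 from edgeR), with -4.29 when db/db replicate 2 was left out and -2.39 when db/+ replicate 3 was left out. The version that starts at base 3 had no read in db/db islets and 7.15, 3.77 and 26.9 normalized reads in db/+ islets. It was at least 11.4-fold lower, or 4.94-fold without db/+ replicate 3, 7.20-fold without db/db replicate 2 and 6.37-fold without db/db replicate 3. Both versions were highest in db/+ replicate 3, as the 41-nt tRF was. Of all listed reads that ended at position 41, between 98.2% and 99.8% in each library began at base 1.

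The fragment of positions 9 to 62 keeps the whole anticodon arm and T arm, a base that matches 11671 and the CCA, and lacks the 5′ strand of the acceptor stem. It had 3.93, 1.99 and 3.33 normalized reads in db/db islets, from 2, 2 and 4 reads, and 17.9, 16.3 and 15.0 in db/+ islets. The groups did not overlap and had little spread, though so few db/db reads measure their spread poorly. It fell by 2.43 in log2 units (standard error 0.60, edgeR adjusted p = 0.00445). As a share of the reads of listed mt-tRNA-Ser-GCT fragments it held 2.0% (95% Wilson interval 0.55 to 7.0), 0.297% (0.0815 to 1.08) and 0.548% (0.213 to 1.40) in db/db islets. In db/+ islets it held 0.714% (0.50 to 1.02), 0.608% (0.415 to 0.889) and 0.310% (0.169 to 0.570). The shares of the groups overlap.

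CCA ends took a smaller share of reads in mt-tRNA-Ser-GCT than in the pooled reads of the other mitochondrial tRNAs. Of the other 123 listed mitochondrial tRFs, 51 ended in the CCA, and those held 18.7%, 22.3% and 24.8% of the reads in db/db islets and 31.8%, 28.5% and 20.9% in db/+ islets. The share was lower for mt-tRNA-Ser-GCT in 6 of 6 libraries, with differences of -31.1 to -16.7 percentage points. With only 1 of its 23 listed tRFs ending in the CCA, this direction was largely set by which tRFs were listed. It is thus no test of a trait of this tRNA. Taken singly, 6 of the 19 mitochondrial tRNAs in the list had no listed tRF that ends in the CCA. With 20 listed tRFs that start at the first base, mt-tRNA-Ser-GCT had the most of the 19 mitochondrial tRNAs in the list, followed by mt-tRNA-Gly-TCC and mt-tRNA-Ile-GAT with 8 each. Its listed 5′ tRFs ran from 18 to 44 nt. Those of mt-tRNA-Ile-GAT ran from 27 to 44 nt, those of mt-tRNA-Gly-TCC from 33 to 55 nt, and the 14 of mt-tRNA-His, which begin before its annotated start, from 37 to 52 nt. Short 5′ tRFs were also listed for other parents, such as 18 nt for mt-tRNA-Trp-TCA and 20 nt for mt-tRNA-Leu-TAA. These are counts of tRFs called decreased, not of all fragments of these tRNAs.

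The make-up of the ladder was described within each library, where size factors play no part. The 41-nt tRF held 64% (95% Wilson interval 54.2 to 72.7), 78.5% (75.2 to 81.4) and 68.2% (64.8 to 71.5) of the listed mt-tRNA-Ser-GCT reads in db/db islets. In db/+ islets it held 47.0% (45.5 to 48.5), 53.3% (51.8 to 54.8) and 82.9% (81.5 to 84.1). Replicates 1 and 2 of db/+ thus lay below every db/db library, and replicate 3 above them all. The mean share was 9.14 percentage points higher in db/db islets, which did not pass the test (exact permutation test, two-sided, p = 0.5, adjusted p = 0.625 over 20 such tests), and it rested on single libraries. Without db/+ replicate 1 it was 2.12 points, without db/+ replicate 2 it was 5.27 points, without db/db replicate 2 it was 5.03 points, and without db/+ replicate 3 it was 20 points. An exact permutation test of 3 against 3 cannot go below p = 0.1.

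**Figure D4:**
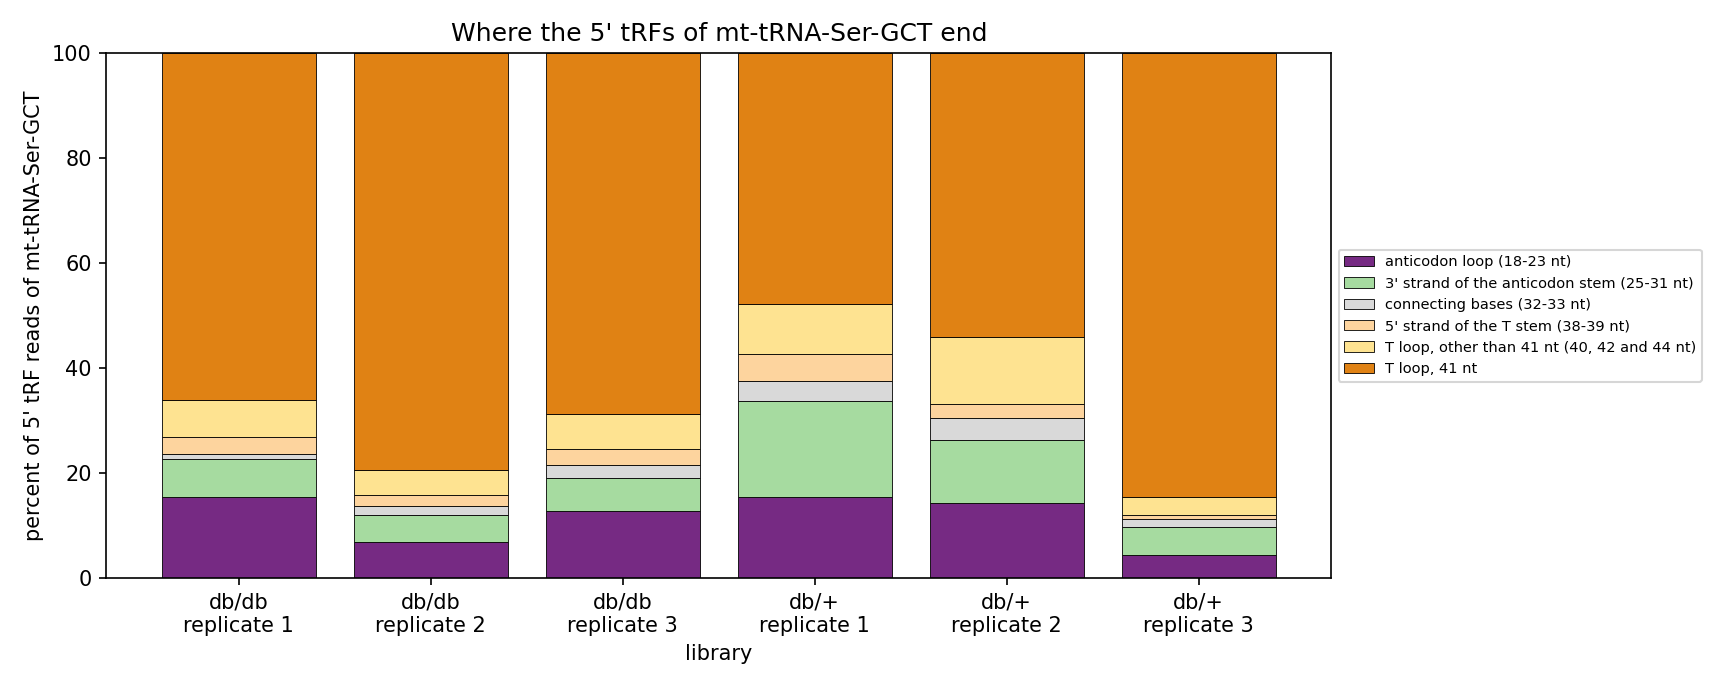
Stacked bars give, for each library, the percent of 5′ tRF reads of mt-tRNA-Ser-GCT by the part of the tRNA in which they end (y axis from 0 to 100%). The 41-nt share is the lowest in db/+ replicates 1 and 2 and the highest in db/+ replicate 3.

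The departure of db/+ replicate 3 ran through the ladder. While its 41-nt tRF had 4000 normalized reads, the other 19 5′ tRFs summed to 736 in it, against 1286 and 1216 in db/+ replicates 1 and 2. In db/db islets these 19 summed to 64.8, 136 and 189, below every db/+ library. That library also had the lowest size factor of the db/+ group, 0.668 against 1.68 and 1.59, and the highest level of listed mt-tRNA-His fragments, 12896 normalized reads against 2703 and 4807. The part of these features in its ladder was not tested. Without the 41-nt tRF, the sum of the 22 other mt-tRNA-Ser-GCT tRFs fell by 3.14 in log2 units (standard error 0.52, limma adjusted p = 0.00235), against a log2 fold change of -2.89 with it (standard error 0.61, limma adjusted p = 0.00614). Over the sums of all 30 parent tRNAs in the list, 100% had a limma adjusted p no larger than 0.05. Some sums fell further than that of mt-tRNA-Ser-GCT, such as those of mt-tRNA-Leu-TAA (-3.35) and mt-tRNA-Gln-TTG (-3.17), and most fell less. In exact permutation tests, the log2 sums of the 5′ tRFs and of the CCA-ended tRF differed by -2.89 and -2.12 (two-sided p = 0.1 each, adjusted p = 0.25).

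The shares of the other ends did not differ past the test. The anticodon loop held 11.7 ± 4.38% of 5′ tRF reads in db/db islets and 11.4 ± 6.0% in db/+ islets (SD, n = 3 each). The 3′ strand of the anticodon stem held 6.18 ± 1.05% in db/db islets and 11.9 ± 6.56% in db/+ islets (SD, n = 3 each). Neither difference passed (exact permutation tests, p = 0.9 and 0.3, adjusted p = 1 and 0.545), and with 3 mice a group this does not show that the shares are alike. The mean length of 5′ tRF reads was 36.7, 38.7 and 37.3 nt in db/db islets and 34.9, 36.0 and 39.2 nt in db/+ islets (exact permutation test, p = 0.6, adjusted p = 0.706), with overlap of the groups. Without the 41-nt tRF it was 28.3, 30.1 and 29.2 nt in db/db islets and 29.4, 30.2 and 29.6 nt in db/+ islets. Reads that began at the first base made up 98.4 ± 1.22% of mt-tRNA-Ser-GCT reads in db/db islets and 98.4 ± 0.24% in db/+ islets (SD, n = 3 each).

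Between the shortest and longest 5′ tRF, the tRNA offers 4 steps from a pyrimidine to A, after positions 22, 27, 35 and 41, the kind of step that ribonucleases of the RNase A family prefer. Listed 5′ tRFs ended at 3 of them. Those of 27 and 41 nt stood above their neighbours, with means in db/+ islets of 152 normalized reads at 27 nt against 65.6 at 26 nt and 10.8 at 28 nt, and of 2203 at 41 nt against 170 at 40 nt and 36.6 at 42 nt. The 22-nt tRF did not, with a mean of 56.7 in db/+ islets against 95.1 at 21 nt and 31.2 at 23 nt. Nor was such a peak particular to these steps. Of the 11 listed 5′ tRFs with both neighbours in the list, 5 stood above both in db/+ islets, and 3 of these, of 19, 21 and 31 nt, did not end at a pyrimidine-A step. Together the 3 tRFs held 72.2%, 85.1% and 73.9% of 5′ tRF reads in db/db islets and 57.3%, 60.9% and 88.8% in db/+ islets, mostly through the 41-nt tRF. These shares describe where listed ends lie and do not show which enzyme made them.

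The fragment of mt-tRNA-Leu-TAG (chrM:11671-11710) begins at the base that the 2 annotations share and ends in the 3′ strand of the anticodon stem, after a C that is followed by A. It had 13.8, 23.9 and 15.8 normalized reads in db/db islets (7, 24 and 19 reads) and 55.4, 64 and 55.4 in db/+ islets (93, 102 and 37 reads). The groups were tight and did not overlap, and db/+ replicate 3 lay with the other db/+ libraries. It fell by 1.69 in log2 units (standard error 0.51, edgeR adjusted p = 0.00869), a smaller point estimate than that of each of the 23 fragments of mt-tRNA-Ser-GCT. After rescaling by the listed nuclear tRFs, which takes out the decrease they share, it was at -0.41 and did not pass (edgeR adjusted p = 0.410). The base at 11671 was thus matched both by the 5′ end of this fragment and, before the CCA, by the fragment of positions 9 to 62 of mt-tRNA-Ser-GCT. The origin of the matching base in either fragment was not tested.

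The levels of the adjoining tRNAs were compared within libraries. Listed fragments of mt-tRNA-Ser-GCT outnumbered the fragment of mt-tRNA-Leu-TAG by 14.3, 28.0 and 38.4 times in db/db islets and by 45.2, 42 and 87.1 times in db/+ islets, with no overlap (exact permutation test, two-sided, p = 0.1, adjusted p = 0.25). Relative to the listed fragments of mt-tRNA-His, which precedes them, those of mt-tRNA-Ser-GCT stood at ratios of 0.255, 0.375 and 0.337 in db/db islets and 0.926, 0.559 and 0.374 in db/+ islets. Here db/+ replicate 3 lay level with db/db replicate 2 (exact permutation test, two-sided, p = 0.2, adjusted p = 0.444).

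As a share of all listed mitochondrial reads, fragments of mt-tRNA-Ser-GCT held 9.52% (95% Wilson interval 7.89 to 11.4), 11.9% (11.1 to 12.8) and 12.4% (11.6 to 13.3) in db/db islets. In db/+ islets they held 21.9% (21.3 to 22.5), 16.8% (16.3 to 17.3) and 13.8% (13.4 to 14.3). The share was lower in every db/db library, with a mean difference of -6.21 percentage points, and of -4.02 without db/+ replicate 1 (exact permutation test, two-sided, p = 0.1, adjusted p = 0.25). Fragments of mt-tRNA-Ser-GCT other than the 41-nt tRF held 3.43%, 2.56% and 3.95% in db/db islets and 11.6%, 7.84% and 2.36% in db/+ islets. These are shares of all listed mitochondrial reads, those of 41 nt included, and db/+ replicate 3 fell below all db/db libraries. The fragment of mt-tRNA-Leu-TAG held 0.667%, 0.424% and 0.324% of listed mitochondrial reads in db/db islets and 0.484%, 0.40% and 0.158% in db/+ islets, with overlap. Intervals and floors cover counting error only.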

How the data were processed

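Small-RNA libraries of whole islets were compared, 3 of db/db and 3 of db/+ mice, each from 1 mouse. The authors pretreated RNA with the rtStar kit, built QIAseq miRNA libraries and took tRF annotation from tRNAscan-SE with GtRNAdb, and from mitotRNAdb for mitochondrial tRNAs. The submitters' processing notes name FastQC, and the aligner, the build and any collapse of molecular identifiers were found in none of the sources used here. The deposited counts are the authors' raw reads per tRF and library. The deposited mean signal per tRF is the mean of counts over the authors' DESeq2 size factors, which were solved from both with a largest misfit of 1.82e-12. The authors' own fold changes, their standard errors, test statistics and p-values were not used. The sum of listed reads is not a depth, so no depth could be given.

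The 170 tRFs were tested with edgeR 4.0.16 (R 4.3.3) on the authors' factors, without filter or covariate, and adjusted by Benjamini-Hochberg. A call needed an adjusted p no larger than 0.05 and a log2 fold change of at most -1. Sums per parent were tested with limma 3.58.1 (trend, log2(sum + 1)), single values with exact permutation tests. Standard errors are the fold change over the root of the F statistic. Both fits were tested on simulated data. tRFs were matched to GENCODE M21 transcripts with CCA added, and stems were placed by hand after the tRNA layout, with their base pairs counted by a script. Alternatives were DESeq2 1.42.0, rescaling to the sum of listed nuclear tRFs, limma without trend, pseudocounts of 0.5 and 5, a minimum mean level of 10, an adjusted p of at most 0.01, a decrease of at least 4-fold, each tRF counted once, a replicate block, and leaving out each library. Leaving out the 41-nt tRF, and the shares of reads in the 41-nt tRF, in the anticodon loop and in mt-tRNA-Ser-GCT, were chosen after seeing the data. Other steps ran in Python 3.11.15 (SciPy 1.17.1, NumPy 2.4.6 and pandas 2.3.3), with plots by matplotlib 3.10.9.

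The members and lists were chosen with earlier results of these data known. Values in every library are given for the 5 tRFs with the highest mean level, the 3 with the smallest adjusted p, the shortest and longest 5′ tRF, the most abundant of each class and the fragment of mt-tRNA-Leu-TAG. The 20-nt, 28-nt and base-3 tRFs were named after their values were seen, for their low db/db counts, as were others where 1 library moved their fold and the 31-nt tRF.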

Additional observations from a re-analysis of the deposited data

How the results depend on the processing

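The count of calls was again 24 with DESeq2, with the replicate block, under a stricter adjusted p of 0.01 and without each library in turn, 23 at a decrease of at least 4-fold and 20 at a mean level of at least 10, which left only 20 of the 24 to test. With the main test, 97.6% of all 170 listed tRFs were called, and the shares under these other settings are not given here. The kept counts therefore do not set the 24 apart from the rest of the list. Levels rescaled to the listed nuclear tRFs left 2 calls, the only 2 of all 170. With this rescaling the sum of mt-tRNA-Ser-GCT tRFs was at a log2 fold change of -1.57 (adjusted p = 0.156 from limma) and the mt-tRNA-Leu-TAG tRF at -0.41 (adjusted p = 0.410 from edgeR). Because those nuclear tRFs were themselves listed for a decrease, this setting removes a shared decrease by construction and cannot show whether the decreases hold. Without 1 library the sum ranged from -3.20 to -2.32 and the mt-tRNA-Leu-TAG tRF from -1.96 to -1.56. With the replicate block they were at -2.89 and -1.73. Same-numbered libraries deviated with correlations of 0.21, -0.26 and -0.22, which gave no clear sign of a pairing but do not exclude one. The block changed no call, but it lowered the limma adjusted p of the sum of mt-tRNA-Ser-GCT tRFs from 0.00614 to 9.88e-06.

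Several differences in make-up, none past its exact test, turned sign. The share of reads in 5′ tRFs differed by -0.013 percentage points, by 1.61 with each tRF counted once and by -0.48 to 0.67 without 1 library. The mean length of 5′ tRF reads differed by 0.85 nt, by -0.52 nt without the 41-nt tRF and by -0.048 to 2.10 nt without 1 library. The share ending in the anticodon loop differed by 0.35 percentage points, and by -3.10 to 2.76 without 1 library. Designs of 3 against 3 cannot pass p = 0.05, so kept directions of the other exact tests say nothing of stability. Few db/db reads limit the precision of most tRFs, and 12 of the 24 folds, bounds not counted, moved by over 1.5 times without 1 library, 9 of them without db/db replicate 3.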
